A study of Mus musculus with 4 samples.

Results

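The genes that encode the proteins of the cytosolic ribosome were read on 4 expression arrays of mouse microglia, the resident macrophages of the brain. Members were chosen by platform symbol alone (Rpl or Rps with a number and at most 1 of the endings a, l and x, Rplp0 to Rplp2, and Rpsa), without pseudogene symbols and from probe sets that carry exactly 1 symbol. The rule found 38 of the 17256 named genes kept, 23 of the large subunit and 15 of the small subunit, each read on its brightest probe set. All mice were male C57BL/6J, and microglia were isolated from whole brain 1 day after an intranasal challenge. The control mice had been given PBS and the allergy group OVA, and each treatment was sampled at postnatal days 30 (P30) and 70 (P70), which makes 4 groups. Each group was 1 array of material pooled from 4 samples, so no difference has a replicate check and no test was made. The study set OVA against PBS at each age, and the design also allows P70 to be set against P30 in each treatment.

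A ribosome joins a large subunit, which forms peptide bonds, to a small subunit, which reads the messenger RNA. Each subunit is built from ribosomal RNA and many small proteins that are needed in matched amounts. Most of their messenger RNAs begin with a pyrimidine run, the 5′ terminal oligopyrimidine motif, through which the kinase complex mTORC1 and the RNA-binding protein Larp1 set how much they are translated. These genes are among the most strongly expressed in any cell, and the mouse genome carries many processed pseudogene copies of them.

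Values are log2 of the deposited intensity, and a difference is a log2 difference between 2 arrays. A gene was counted as changed where 2 arrays were at least 1.5-fold apart (0.58 on the log2 scale). Genes with a mean level of at least 7.20 over the 4 arrays, the median of the genes kept, were called expressed (8628 genes). Of the 38 members, 36 were expressed, and Rpl10l and Rpl3l, copies known mainly from testis and from muscle, lay below that level at 5.86 to 6.22 on the 4 arrays. No member lay at the highest value of an array, which was 19.88 for PBS and 19.74 for OVA on the P30 arrays and 19.93 for either treatment at P70. Rpl41, the smallest ribosomal protein, came within 0.5 of it, with 18.73 and 18.94 in PBS and OVA at P30 and 19.78 and 19.75 at P70, so that value bounds its differences.

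Several members were read on a probe set away from the gene they name. The probe set IDs name a chromosome, and it matched the gene's chromosome in RefSeq for 99.6% of 22624 probe sets with 1 symbol. For 6 members it did not: Rpl7a, Rpl12, Rpl27, Rpl31, Rpl35 and Rpl41. Their values may hold RNA of other copies, and near-identical copies cannot be told apart on such arrays. Rpl6l is itself a pseudogene in RefSeq, although its symbol passes the rule.

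The difference between the ages was much larger than that between the treatments. At P30 the median level of the 38 members was 9.68 in PBS and 9.88 in OVA. At P70 the median was 11.25 with PBS and 11.44 with OVA. Both P70 arrays lay above both P30 arrays for 35 of the 38 members, and for 63.9% of all expressed genes (5511 of 8628). The gap was at least 1.5-fold for 26 members and at least 2-fold for 18, counts not set against all expressed genes. With each array centred on its median the order held for 29 members and 36.7% of all expressed genes. In a bulk sample, fewer cells of a type and less RNA per cell cannot be told apart.

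**Figure D1:**
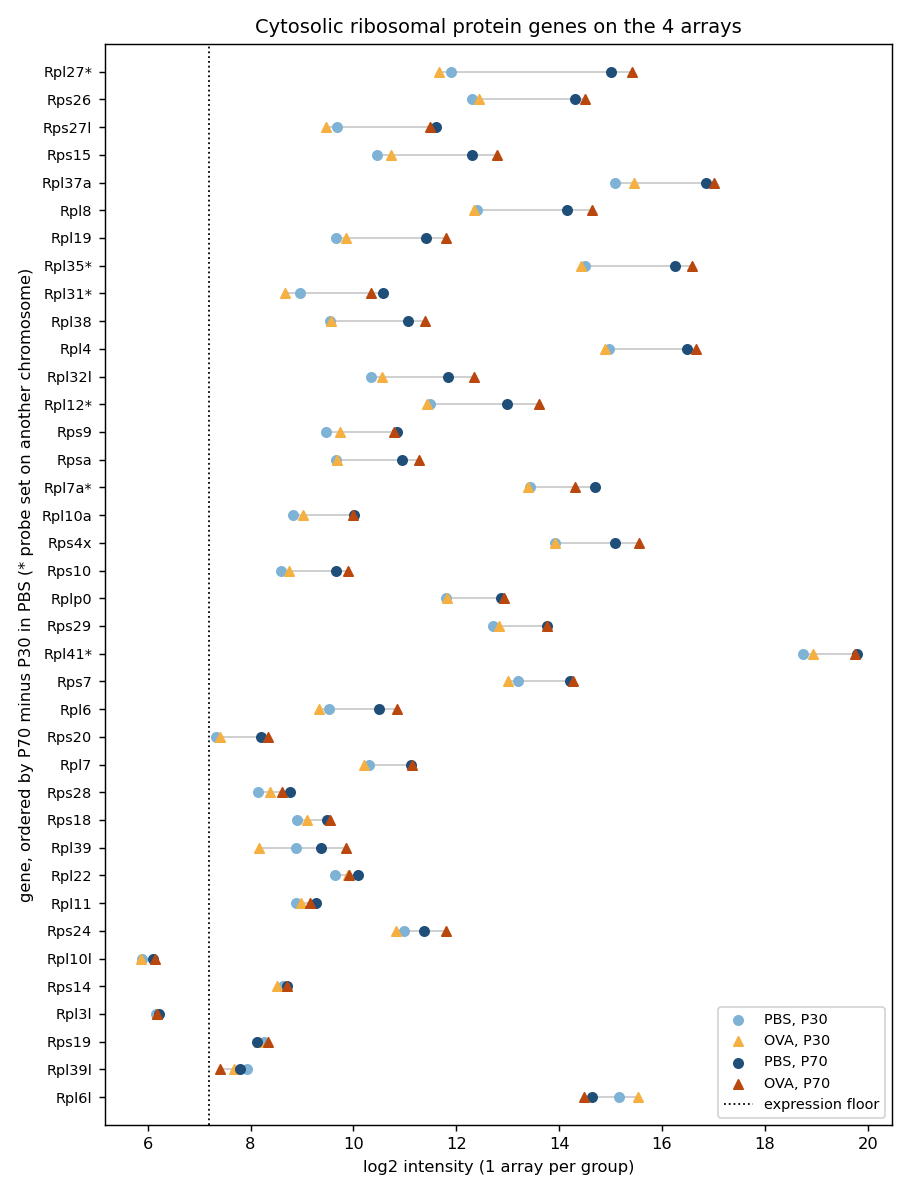
Level of each of the 38 cytosolic ribosomal protein genes (log2 intensity, 1 point per array) in PBS (circles) and OVA (triangles) at P30 (light) and P70 (dark), ordered by the P70 minus P30 difference in PBS. In 35 genes both P70 points lie to the right of both P30 points, Rpl6l runs the other way, and the dotted line is the level of 7.20 used to call a gene expressed.

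Between OVA and PBS at P30 the members stayed close together. The median difference was 0.0099, against -0.014 for all expressed genes, and 35 of 38 members differed by less than 0.32. A single member passed 1.5-fold, where 1.54% of all expressed genes did in either direction, 0.672% higher and 0.869% lower. That member was Rpl39, a small protein of the large subunit that lines the tunnel through which the new peptide leaves. At P30 its level was 8.88 in PBS and 8.17 in OVA, and on the later arrays 9.38 with PBS and 9.85 with OVA, so OVA was the lowest array at P30 and the highest at P70. The difference was -0.72 at P30 and 0.48 at P70. The processed copy Rpl39-ps, looked up after these values were seen, read 10.51 and 9.81 in PBS and OVA at P30 and 11.49 and 11.72 at P70, with a difference of -0.70 at P30 and 0.23 at P70. The testis-enriched paralogue Rpl39l differed by -0.25 at P30 and -0.39 at P70, neither past 1.5-fold.

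The other members at the ends of the P30 comparison were all within 1.5-fold. The highest differences, OVA minus PBS, were 0.37 in Rpl6l, 0.36 in Rpl37a, 0.27 in Rps15, 0.27 in Rps9 and 0.25 in Rpl22. The lowest after Rpl39 were -0.28 in Rpl31, -0.25 in Rpl39l, -0.24 in Rpl27 and -0.22 in Rps27l. Rpl31 and Rpl27 were read at another chromosome. At its own chromosome Rpl31, on a probe set of several symbols, differed by 0.010, and Rpl27 by -0.18. Both subunits lay near 0, with a median of -0.027 for the 23 large subunit members and 0.095 for the 15 of the small subunit.

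At P70 the median difference between OVA and PBS was 0.096, against 0.092 for all expressed genes, and it turned to -0.0086 with each array centred on its median. One member passed 1.5-fold, where 5.24% of all expressed genes did in either direction, 4.04% higher and 1.19% lower. It was Rpl12, which sits at the base of the stalk that recruits elongation factors. Its level was 11.50 and 11.44 in PBS and OVA at P30 and 12.99 and 13.62 at P70. OVA was therefore the highest array at P70, by 0.63, and the P30 arrays were 0.059 apart with OVA the lower. This probe set is 1 of the 6 at another chromosome. The probe set at the gene's own chromosome, which it shares with a small nucleolar RNA, differed by 0.24.

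OVA was above PBS at P70 in 24 of 38 members, a share near that of all expressed genes (5637 of 8628). The difference was less than 0.32 in either direction in 24 members. Differences next to that of Rpl12 were 0.51 in Rpl32l, 0.49 in Rpl8, 0.48 in Rps15 and 0.48 in Rps4x. The lowest were -0.40 in Rpl7a, -0.39 in Rpl39l, -0.24 in Rpl31, -0.16 in Rpl22 and -0.16 in Rps28. At its own chromosome Rpl7a differed by -0.17, and Rpl31, on a probe set of several symbols, by 0.011. The sign of the OVA difference was opposite at the 2 ages in 21 of 38 members, a count not set against all expressed genes. The OVA differences at P30 and P70, which share no array, had r = -0.12 over the 38 members and 0.016 over all expressed genes.

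Subtracting the OVA difference at P30 from that at P70 gave a median of 0.098 over the members, against 0.10 over all expressed genes. It reached 1.5-fold upwards in 4 of 38 members and downwards in none, where 7.78% of all expressed genes did upwards and 2.26% downwards. These were Rpl39 at 1.19, Rpl12 at 0.69, Rpl27 at 0.65 and Rps24 at 0.59. The most negative were Rpl6l at -0.52, Rpl22 at -0.42, Rps28 at -0.39, Rpl7a at -0.35, Rps9 at -0.33 and Rpl41 at -0.24. Of the named genes, Rpl12, Rpl27, Rpl7a and Rpl41 were read at another chromosome. At its own chromosome Rpl27 had a value of -0.010, and Rpl12, on a probe set of several symbols, 0.36. On own-chromosome probe sets of 1 symbol, 2 of 36 members reached 1.5-fold upwards and none downwards.

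**Figure D2:**
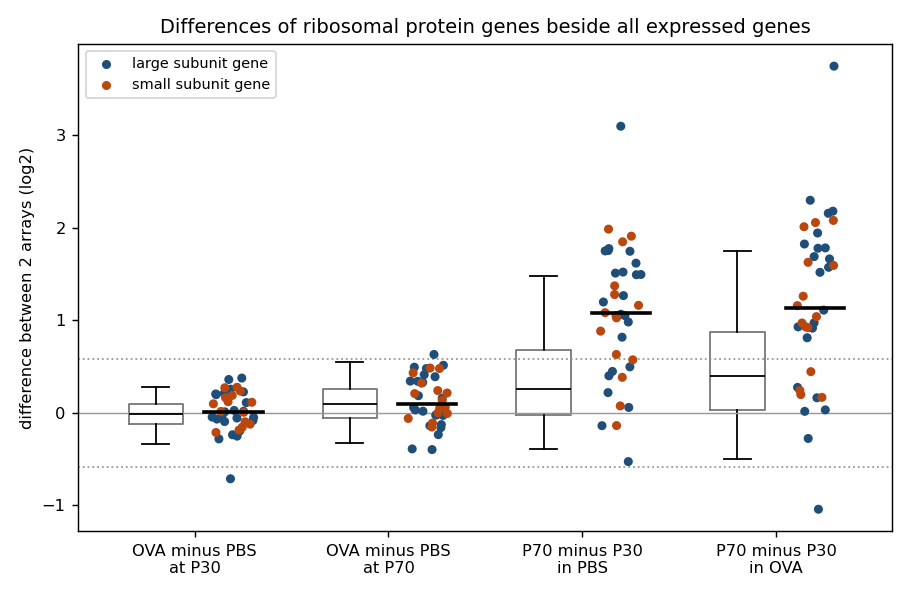
Differences between 2 arrays (log2) for the 38 members (points, blue for the large and orange for the small subunit, thick bar at their median) beside all 8628 expressed genes (box from the lower to the upper quartile with the median, whiskers at the 5th and 95th percentiles). Dotted lines mark 1.5-fold, and the member medians are 0.0099 and 0.096 for OVA minus PBS at P30 and P70 against 1.07 and 1.13 for P70 minus P30 in PBS and OVA.

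The ribosomal protein genes were higher as a group at P70 than at P30. The arrays of the 2 ages also differed as a whole. Their median intensity over all probe sets was 131 and 132 in PBS and OVA at P30 and 111 and 105 at P70. Within 0.01 of the highest value lay 98 and 109 probe sets at P30 and 19 and 13 at P70. Age and a difference between the 2 pairs of arrays cannot be told apart here. In PBS, 27 of 38 members were at least 1.5-fold higher at P70 and none was lower, where 32.1% of all expressed genes passed in either direction and 29.3% were higher. In OVA, 28 were higher and 1 was lower, where 43.2% passed and 39.0% were higher. The median difference was 1.07 in PBS (2.10-fold), which is 0.81 above the median of all expressed genes, 0.26. In OVA it was 1.13 (2.19-fold), which is 0.74 above the median of all expressed genes, 0.39. With each array centred on its median the direction of these medians stayed, at 0.77 and 0.70, and 24 members in PBS and 21 in OVA were higher. With each difference centred along the level of signal (a lowess curve over all expressed genes) the medians stayed above 0 but came to 0.40 and 0.43 over the 36 expressed members, with 15 higher and 1 lower in PBS and 16 higher and 2 lower in OVA. The split of all expressed genes moved more under median centring, from 29.3% higher and 2.77% lower to 17.1% and 8.52% in PBS, and from 39.0% and 4.20% to 19.4% and 14.2% in OVA.

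To set the letters around the start beside the values, the longest run of C and T on the gene's strand between 30 bases before and 50 bases after the RefSeq start is shown in capitals within 30 bases, 5′ to 3′, for the 5 members with the largest difference in PBS, then for Rpl39, and then for the 3 lowest of those with a sequence. The sequences and positions are those of RefSeq on GRCm38.p6.
Rpl27 (chr11:101442226-101442255, plus strand): cggaacgctctgTTCCTgtctgctgctcgt
Rps26 (chr10:128626484-128626513, minus strand): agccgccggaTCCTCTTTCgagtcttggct
Rps27l (chr9:66946054-66946083, plus strand): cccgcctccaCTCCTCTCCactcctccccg
Rps15 (chr10:80292447-80292476, plus strand): cagcccgtaCTTCCTTTTCCgagtaaccgc
Rpl37a (chr1:72711275-72711304, plus strand): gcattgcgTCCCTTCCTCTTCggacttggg
Rpl39 (chrX:37085173-37085202, minus strand): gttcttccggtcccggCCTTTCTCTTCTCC
Rpl39l (chr16:10170192-10170221, plus strand): acacccactgCCTCTCCCTagctcccaggc
Rps19 (chr7:24884612-24884641, plus strand): cgcccgggaaaccccgtcgTTCCCTTTCCC
Rpl3l (chr17:24727846-24727875, plus strand): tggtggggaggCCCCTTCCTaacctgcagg
The run was 5 bases long in Rpl27, 9 in Rps26 and Rps27l, 11 in Rps15 and 13 in Rpl37a. It was at least 14 bases long in Rpl39 and at least 11 in Rps19, where it reached the end of the window searched. In Rpl39l and Rpl3l it was 9 bases long. The stretch began up to 26 bases before the RefSeq start (in Rpl39l) and up to 40 bases after it (in Rps19), so it is not shown to be the terminal motif. The sequence of Rpl27 is that of chromosome 11, but its value came from a probe set of another chromosome. At the gene's own chromosome the rise in PBS was 1.55. Rpl3l lay below the expression level. Lengths overlapped between genes that rose and genes that did not, and a relation of length to the rise was not tested.

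Among large subunit members, 16 of 23 rose in PBS and 17 in OVA, with medians of 1.20 and 1.52. Rpl27 had the highest difference in both treatments, 3.10 in PBS and 3.75 in OVA, from 11.90 and 11.66 in PBS and OVA at P30 to 15.00 and 15.41 at P70. Rpl37a, a zinc finger protein of the large subunit, read 15.09 and 15.45 at P30 and 16.86 and 17.02 at P70, a difference of 1.77 in PBS and 1.57 in OVA. In both genes the P30 and P70 arrays were far apart, and the treatments close.

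The protein Rpl8 lies near the centre where peptide bonds form. It read 12.40 with PBS and 12.34 with OVA at P30 and 14.15 and 14.64 at P70, a difference of 1.75 in PBS and 2.30 in OVA. Rpl19, which takes part in a bridge between the subunits, went from 9.67 and 9.86 to 11.42 and 11.81, a difference of 1.75 and 1.94. For both genes OVA at P70 was the highest array.

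Of members near the peptide exit tunnel, Rpl4, whose loop reaches into the tunnel, read 14.98 and 14.89 in PBS and OVA at P30 and 16.49 and 16.67 at P70, a difference of 1.51 and 1.78. Rpl35, at the tunnel's exit, read 14.50 and 14.43 at P30 and 16.25 and 16.59 at P70 on a probe set of another chromosome, a difference of 1.75 and 2.16. Rpl31, also at the exit and also read elsewhere, went from 8.96 and 8.68 to 10.58 and 10.34, a difference of 1.62 and 1.66. Rpl39, in the tunnel wall, rose in OVA by 1.69 but differed by 0.49 in PBS, below 1.5-fold.

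At the stalk, Rplp0, the protein that anchors it, read 11.81 and 11.82 in PBS and OVA at P30 and 12.87 and 12.93 at P70, a difference of 1.06 and 1.11. Rpl12 beside it rose by 1.49 in PBS and 2.18 in OVA on a probe set of another chromosome, and by 1.01 and 1.37 at its own. Rpl10a, of the other stalk of the large subunit, rose by 1.20 and 0.97. Other large subunit members that rose in both treatments were Rpl38, known for a part in the translation of Hox messenger RNAs (1.52 and 1.82), Rpl32l (1.49 and 1.78), Rpl7a (1.26 and 0.91), Rpl41 (1.05 and 0.81), Rpl6 (0.98 and 1.52) and Rpl7 (0.82 and 0.93). Centred along the level of signal, the direction turned in OVA for Rpl7a (-0.26), Rpl41 (-0.29), Rpl7 (-0.069) and Rplp0 (-0.018), and in PBS for Rpl41 (-0.074).

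In the small subunit, 11 of 15 members rose in each treatment, though not the same 11, with medians of 1.05 in PBS and 1.04 in OVA. Rps26, a protein beside the exit of the messenger RNA channel, read 12.31 and 12.43 in PBS and OVA at P30 and 14.30 and 14.51 at P70, a difference of 1.98 and 2.08. Rps27l, a paralogue of Rps27 known as a target of p53, went from 9.69 and 9.47 to 11.60 and 11.48, a difference of 1.91 and 2.01. Rps15, in the head of the subunit, went from 10.45 and 10.73 to 12.30 and 12.78, a difference of 1.85 and 2.06. In all 3 genes each P70 array was far above each P30 array.

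Smaller increases in both treatments were seen in Rps9 (1.37 in PBS and 1.04 in OVA), Rpsa, also known as the laminin receptor (1.28 and 1.59), Rps4x, the X-linked form of Rps4 (1.16 and 1.63), Rps10 (1.08 and 1.16), Rps29 (1.05 and 0.93), Rps7, known to bind Mdm2 (1.02 and 1.26), and Rps20 (0.88 and 0.92). Rps28 passed 1.5-fold in PBS alone, at 0.63 against 0.24 in OVA. Rps24 passed it in OVA alone, at 0.97 against 0.38 in PBS. The difference between these effects was -0.39 in Rps28, which did not reach 1.5-fold, and 0.59 in Rps24, which just did. Centred along the level, the OVA value turned to -0.10 in Rps24 and to -0.23 in Rps29.

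A minority of members did not follow. Rpl6l was the only member with both P70 arrays below both P30 arrays, at 15.16 and 15.53 in PBS and OVA at P30 and 14.63 and 14.49 at P70. It differed by -0.53 in PBS and fell by 1.05 in OVA. The gene Rpl6, which encodes the protein, rose in both treatments on its own probe set, from 9.52 and 9.33 in PBS and OVA at P30 to 10.50 and 10.84 at P70.

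Rps19, a protein best known from Diamond-Blackfan anaemia, was nearly level on its dim probe set. That probe set read 8.27 and 8.17 in PBS and OVA at P30 and 8.13 and 8.33 at P70. Its age difference was -0.14 in PBS and 0.16 in OVA. Rps14, of the small subunit's platform, read 8.64 and 8.52 at P30 and 8.71 on both P70 arrays, with age differences of 0.072 and 0.19. Rpl39l was lower at P70 by less than 1.5-fold, with differences of -0.14 and -0.28. Rpl3l and Rpl10l, both below the expression level, differed by at most 0.27.

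Among the remaining members, Rpl11, which with Rpl5 carries the 5S ribosomal RNA, differed by 0.40 in PBS and 0.16 in OVA. Rpl22, whose tagged form marks ribosomes in the RiboTag mouse, differed by 0.45 and 0.029, and Rps18, of the small subunit's head, by 0.57 and 0.44. These 3 were above both P30 arrays on both P70 arrays, by less than 1.5-fold.

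The size of the age difference was much alike in the treatments. Over the 38 members the differences in PBS and in OVA, which share no array, had r = 0.93 (Spearman's rho = 0.88), and over all expressed genes r = 0.88 (rho = 0.86). These points share the scaling of each array, and genes are not independent replicates. The members farthest from the line of equal difference were Rpl39, higher in OVA, and Rpl12, Rpl27 and Rps24, also higher in OVA. Rpl12 and Rpl27 were read there on probe sets of another chromosome. At its own chromosome Rpl27 rose by 1.55 in PBS and 1.54 in OVA, and Rpl12 by 1.01 and 1.37.

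**Figure D3:**
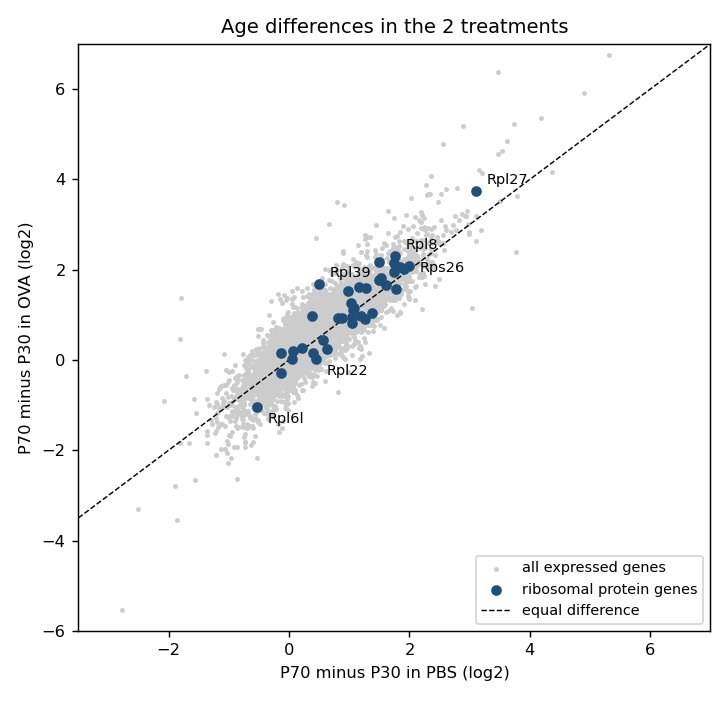
P70 minus P30 difference (log2) in PBS on the x axis and in OVA on the y axis for the 38 members (blue) and all 8628 expressed genes (grey), with a dashed line where both are equal. Most members lie at the upper right of the grey cloud with r = 0.93, Rpl27 is farthest out, and Rpl6l is below 0 on both axes.

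The extent of the rise depended on the probe set. The 6 members read at another chromosome had median age differences of 1.55 in PBS and 1.91 in OVA, and the 32 read at their own had 1.04 and 1.07. At the gene's own chromosome Rpl27 read 8.76 and 8.58 in PBS and OVA at P30 and 10.31 and 10.12 at P70, a rise of 1.55 and 1.54. Rpl35 read 11.41 and 11.48 at P30 and 12.26 and 12.41 at P70 there, a rise of 0.85 and 0.93. Both were still higher on both P70 arrays, by less than on the brighter probe set.

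Rpl7a rose as much at its own chromosome, from 10.92 and 11.03 to 12.35 and 12.18, by 1.44 and 1.15. Rpl41 did not pass 1.5-fold at its own chromosome, where it read 10.38 and 10.45 at P30 and 10.81 and 10.74 at P70. On own-chromosome probe sets of several symbols, Rpl12 rose by 1.01 in PBS and 1.37 in OVA, and Rpl31 by 0.92 in each. Rps26 had 3 probe sets, of which that at its own chromosome was the brightest. A second one, on chromosome 8, rose from 10.73 and 10.86 to 12.75 and 13.12. Its remaining one, on chromosome 12, was lower at P70, at 7.76 and 8.09 in PBS and OVA at P30 and 7.47 and 7.41 at P70, so probe sets of 1 symbol did not all run the same way.

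**Figure D4:**
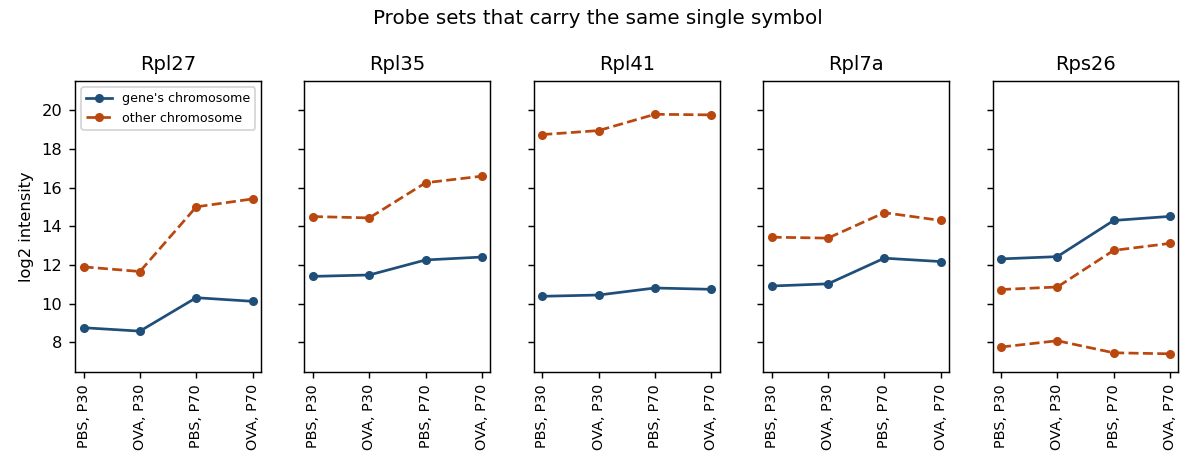
Level (log2 intensity) on the 4 arrays of every probe set that carries only the named symbol, for the 5 members with more than 1. Solid blue lines are probe sets at the gene's own chromosome and dashed orange lines those elsewhere, and all but the dimmest probe set of Rps26 are higher on both P70 arrays than on both P30 arrays.

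Most of the family lies outside the rule, because 44 of the 81 protein-coding genes that RefSeq names this way are no members. Of these, 37 occur only in probe sets that carry several symbols and 7 in no named probe set. A single gene cannot be named from such a probe set, since gene and copy share it. The 53 probe sets of several symbols moved like the members, with 41 at least 1.5-fold higher at P70 in each treatment, none lower, and medians of 0.96 in PBS and 1.06 in OVA. Read at the gene's own chromosome whatever the number of symbols, 76 ribosomal protein genes had a median of 0.97 in each treatment, with 56 higher in PBS and 55 higher and 1 lower in OVA. The probe set at the chromosome of Rplp1, a stalk protein, which it shares with a predicted gene, read 13.82 and 13.39 in PBS and OVA at P30 and 17.02 and 17.52 at P70.

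Symbols of ribosomal protein pseudogenes were followed beside the genes as copies that the arrays name separately. Of 201 such symbols 181 were expressed, and 157 were at least 1.5-fold higher at P70 in each treatment, with 1 lower in PBS and 3 in OVA. Of all expressed genes, 29.3% were higher in PBS and 39.0% in OVA. The medians of the 181 symbols were 1.26 in PBS and 1.41 in OVA. At P70, 24 were higher and 1 lower in OVA than in PBS (median 0.18), where 4.04% of all expressed genes were higher and 1.19% lower (median 0.092). Some symbols share all values and are counted more than once, as the 6 of Rpl35a hold 4 distinct sets and the 15 of Rps12 hold 13. The copies of Rpl27 (2 symbols) had medians of 2.83 and 3.07, those of Rpl19 (4 symbols) 2.80 and 2.88, and those of Rpl31 (21 symbols) 1.29 and 1.42.

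Probe sets named for copies of Rps19 differed from the probe set of the gene. That of the gene was among the 5 dimmest members, with a mean level of 8.22. Those of the copies had mean levels from 7.37 (Rps19-ps13) to 12.36 (Rps19-ps5). They may read RNA of the gene itself, which cannot be told apart from RNA of a copy here. All 13 pseudogene symbols of Rps19 were expressed, with 12 distinct sets of values, since Rps19-ps1 and Rps19-ps2 share theirs. Between the ages their median difference was 0.89 in PBS and 1.41 in OVA, with 11 and 10 of 13 higher by at least 1.5-fold, whereas the gene's own probe set differed by -0.14 and 0.16. In OVA at P70, 8 of the 13 were higher than in PBS and 1 lower, with a median of 0.71, and the gene differed by 0.21. Rps19-ps6 is an example, at 10.67 and 10.68 in PBS and OVA at P30, then 11.90 with PBS and 12.65 with OVA at P70. This set was singled out after its values were seen.

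Bright genes as a whole were higher at P70. Of expressed genes in the upper quartile of mean level, 49.5% passed 1.5-fold with age in PBS and 63.4% in OVA, with medians of 0.55 and 0.75. The 36 expressed members had medians of 1.12 and 1.21 before centring along the level and 0.40 and 0.43 after it. After that step 16 members passed 1.5-fold in PBS, where 20.2% of all expressed genes did in either direction, and 18 in OVA, where 24.2% did. The centred difference was below 0 in 8 of the 36 members in PBS and in 14 in OVA, among them Rpl22 at -0.18 and -0.81, Rpl11 at -0.046 and -0.46 and Rps14 at -0.26 and -0.30. No source used here gives the way the arrays were scaled to each other.

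Other genes of translation differed by list, and each count is to be read against the 29.3% of all expressed genes that were higher at P70 in PBS and the 39.0% in OVA, with medians of 0.26 and 0.39. In a mixed list of 9 expressed genes, holding Fau and factors that associate with ribosomes or act on translation, 7 rose in each treatment, with medians of 0.89 and 1.17. The largest difference was in Fau, which encodes ribosomal protein S30 fused to a ubiquitin-like protein. It read 9.62 and 9.90 in PBS and OVA at P30 and 12.17 and 12.67 at P70, a rise of 2.55 in PBS and 2.77 in OVA. Larp1, the reader of the pyrimidine motif, differed by -0.11 and -0.032. Nap1l1, a nucleosome assembly protein, was the only one of the 9 past 1.5-fold between treatments, at 10.92 with PBS against 11.68 with OVA at P70.

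Of 29 translation initiation factors, 17 rose in PBS and 20 in OVA (medians 0.68 and 0.91). The largest differences were in subunits of eIF3, which holds the small subunit ready for the messenger RNA, with Eif3h up by 1.95 in PBS and 2.45 in OVA and Eif3k by 1.77 and 2.07. Subunits of the same complex varied, and Eif3b differed by 0.26 and 0.25, below 1.5-fold. Eif4a1, the helicase of the cap-binding complex, differed by -0.073 and -0.12. Elongation factors had the lowest medians of these lists, with 3 of 9 higher in each treatment and medians of 0.070 and 0.32, both below those of all expressed genes. Eef1a1, which brings the aminoacyl-tRNA, was nearly level at 16.27 and 16.18 in PBS and OVA at P30 and 16.34 on both P70 arrays, and Eef2, which moves the ribosome along, differed by -0.15 and 0.25.

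Of 66 expressed ribosome biogenesis genes, 25 rose in PBS and 30 in OVA, with medians of 0.46 and 0.53, against 29.3% and 39.0% of all expressed genes with medians of 0.26 and 0.39. Utp3, of the small subunit processome, rose by 2.23 and 2.30, and Npm1, the nucleolar protein nucleophosmin, by 0.71 and 1.33. Of 22 genes of mTORC1 and the S6 kinase pathway, 8 and 10 rose, with medians of 0.38 and 0.42, near those of all expressed genes. The largest differences in PBS were in Lamtor3, up by 2.56 and 2.59, and Rraga, up by 1.96 and 1.56, both parts of its lysosomal anchor, while Lamtor1 of the same anchor differed by 0.16 and 0.14. No gene of these 5 lists fell past 1.5-fold with age.

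Mitochondrial ribosomal proteins, which build the separate ribosome of the mitochondrion, also rose, with 39 of 66 expressed higher in PBS and 48 in OVA, where 29.3% and 39.0% of all expressed genes were. Their medians were 0.63 and 0.86, against 1.12 and 1.21 for the 36 expressed cytosolic members. None fell past 1.5-fold with age. Mrpl50 went from 7.77 and 7.97 in PBS and OVA at P30 to 10.87 and 10.60 at P70, and Mrpl42 from 9.81 and 9.68 to 12.01 and 12.23. Between OVA and PBS, 1 was lower at P30 and 3 were higher at P70 (1.52% and 4.55% of the 66). Those shares are near the 0.869% lower at P30 and 4.04% higher at P70 among all expressed genes.

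**Figure D5:**
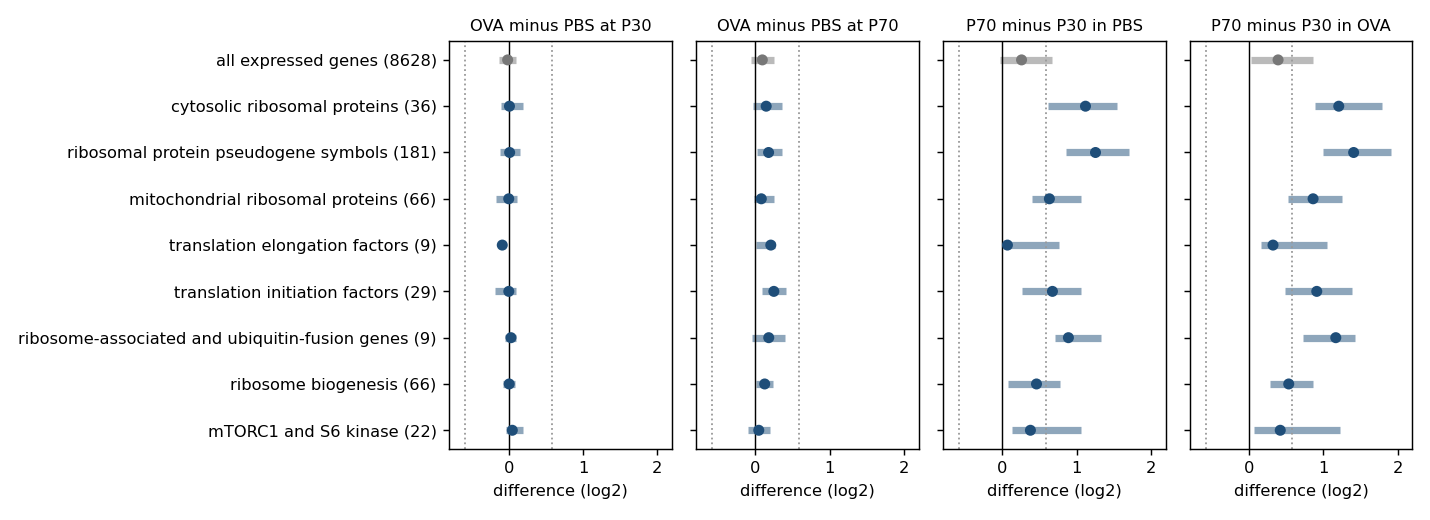
Median difference (point) and quartile range (bar) of the expressed genes of each list (log2), with 1 panel per comparison, the number of expressed genes in brackets and dotted lines at 1.5-fold. In the 2 age panels cytosolic ribosomal protein genes and their pseudogene symbols lie farthest to the right, and in the 2 OVA panels all lists lie close to 0.

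Markers of other cell types moved with age as well, and their part in these results was not tested. The isolates held microglia, as 13 of 14 markers were found and all 13 were expressed, with a log2 summed level of 20.66 and 20.51 in PBS and OVA at P30 and 20.81 and 20.84 at P70. The median OVA minus PBS difference of these 13 at P30 was -0.14, equal to that between the highest values of the 2 arrays. Those highest values therefore bound the microglia sums, which cannot show whether the markers were steady with age. The 13 neutrophil markers summed to 16.26 and 14.88 at P30 and 19.77 and 19.54 at P70, and 9 of 11 expressed ones rose with age in each treatment. At P30, 7 of those 11 were lower in OVA, with a median of -1.31. The 8 monocyte markers found of 9 summed to 11.05 and 11.15 at P30 and 14.41 and 14.58 at P70.

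The 11 markers of border-associated macrophages summed to 15.57 and 15.25 in PBS and OVA at P30 and 16.05 and 16.44 at P70, and 5 of 10 expressed ones were higher in OVA at P70. Of 6 choroid plexus and ependymal markers found of 7, 5 lay below the expression level on every array, and Ttr read 7.45 and 9.32 at P30 and 7.90 and 12.02 at P70. All 8 neuron markers lay below the expression level on every array. Summed levels ranged from 9.38 to 9.68 for 5 of 6 B cell markers, from 9.88 to 10.44 for 8 of 10 of T and NK cells, from 10.09 to 10.73 for 8 of 8 of astrocytes, from 9.63 to 9.68 for 7 of 9 of the oligodendrocyte lineage, from 9.66 to 9.87 for 10 of 10 endothelial and mural ones, and from 9.91 to 10.22 for 3 of 8 erythroid ones.

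Promoter sequences from 250 bases before to 50 bases after the RefSeq start were found for 32 members. The core CCGGAAG of ETS factors, on either strand, was present in 15 of 32 (46.9%), against 9.93% of 27025 genes with such a sequence. A pyrimidine run of at least 8 bases on the gene's strand, from 30 bases before the start onwards, was in 25 of 32 (78.1%), against 32.3%. The Sp1 box GGGCGG was in 16 of 32, against 38.2%, and overlap with other motifs was not removed. The YY1 core AAGATGG was in 4 of 32 (12.5%), against 7.28%, and the TATA box TATAAA in 5 of 32 (15.6%), against 15.7%. Such matches describe letters in a window and show no binding.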

How the data were processed

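RNA of microglia isolated from whole brain was extracted, amplified, labelled with biotin and read on 4 1-colour arrays, 1 per group. The authors deposited linear intensities, already summarised per probe set by the authors. RMA and Affymetrix Expression Console 1.4.1 are named, per the submitters' processing notes; how arrays were scaled to each other and the genome build are not given in the sources used here. Log2 was taken of the deposited values with no further normalization (Python 3.11.15, numpy 2.4.6, pandas 2.3.3, statsmodels 0.14.6).

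Of 65956 probe sets, 30604 carried 1 symbol in the platform annotation, 2146 several and 33206 none here; 13115 of the first were left out by symbol pattern (predicted genes, small RNAs, olfactory, vomeronasal and trace amine receptors, antigen receptor segments). The brightest probe set stood for the 191 genes with more than 1. Gene names, chromosomes, gene types and promoter sequences came from RefSeq (GRCm38.p6); the chromosome was set against the one in the probe set ID.

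The members and lists were chosen with earlier results of these data known. Named members were those with the 5 highest and 5 lowest differences per comparison, with the 6 most positive and 6 most negative gaps between the OVA effects at the 2 ages, every member at least 1.5-fold apart, the 5 brightest and 5 dimmest, those at a ceiling and paralogue pairs; all other members are given by value as well. In other lists, up to 4 genes with the largest difference and 2 with the highest level could be named. The counting was tested on simulated data. With 4 arrays, 1 per group, the number of arrays limits the precision and no test was made. Alternatives covered scaling, the choice of probe set, members near a ceiling, paralogue pairs and the threshold.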

Additional observations from a re-analysis of the deposited data

Results flagged for a closer look

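Rpl39 was flagged because OVA and PBS differed in opposite directions at the 2 ages. OVA was lower than PBS at P30, with a log2 difference of -0.72, and higher at P70, at 0.48. The difference between these values was 1.19, the largest among the 38 members, of which 21 had opposite signs at the 2 ages. A probe set of several symbols on chromosome 7, Rpl5 among them, differed by -0.64 and 0.58, a gap of 1.22. The probe set at the own chromosome of Rpl5, also of several symbols, differed by -0.16 and 0.20, a gap of 0.37. With 1 array per group these differences were not tested. The copy named Rpl39-ps differed by -0.70 and 0.23 in the same comparisons, and shared sequence between gene and copy cannot be told apart on these arrays.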

How the results depend on the processing

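No paired analysis was possible because each group is 1 array and the groups share a single replicate number, and for the same reason no replicate could be left out. Median centring of each array moved the median of all expressed genes by over 0.1 in 3 comparisons, from 0.092 to -0.012 for OVA at P70, from 0.26 to -0.044 for age in PBS and from 0.39 to -0.037 for age in OVA. It put the member median at -0.0086 for OVA at P70, 0.77 and 0.70 for age in PBS and OVA, and -0.026 for the difference between the OVA effects. Centring along the level gave 0.40, 0.43 and -0.067 for the last 3, and 16 and 18 members past 1.5-fold with age. Among members called with age it turned the difference in Rpl41 to -0.074 in PBS and -0.29 in OVA, and in OVA that of Rpl7 to -0.069, Rpl7a to -0.26, Rplp0 to -0.018, Rps24 to -0.10 and Rps29 to -0.23. Of 58 single values it left 33 much as they were, and quantile normalization all 58.

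The counts for OVA were the ones that changed most often. At P30 the count of 1 became 0 without paralogue pairs or at 2-fold and 3 at the lower threshold of 0.32. At P70 it became 0 under median centring, centring along the level, own-chromosome probe sets of 1 symbol and 2-fold, 5 under quantile normalization and 14 at that lower threshold. Over all 76 ribosomal protein genes at their own chromosome, an alternative chosen after seeing the data like that for 1 symbol, 2 passed at P30, 2 at P70 and 56 in each age comparison, with age medians of 0.97 and 0.97. The cause of these changes was not tested. Unknown scaling and 1 array per group limit all values, and differences near an array's highest value are compressed.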
